A study of Mus musculus with 6 samples.

Results

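The DNA replication factors described here are 42 genes taken by symbol from a list, by a rule that uses no measured value, although the list was drawn up with earlier results of these data known. They encode the proteins that license origins, open the double helix, copy both strands and rebuild chromatin behind the fork. All 42 were found in the table of 55487 genes, through GENCODE M21 names of its Ensembl identifiers, and all 42 were tested. The cells were RAW264.7, a mouse macrophage line that can be driven towards osteoclasts, and all 6 samples carried the treatment label RANKL/M-CSF, after 2 cytokines used for that purpose. In 3 samples the genotype label was wt (titled Control) and in 3 it was RhoA knockout (titled SMART-Cas9), RhoA being a small GTPase that organises actin. The study asked about loss of RhoA in macrophages in relation to bone destruction in rheumatoid arthritis. The design text calls the control line untreated, and no sample is labelled as carrying Cas9 without the targeting of RhoA, so the Cas9 treatment and the edit cannot be told apart. The labels do not say whether the edited cells were 1 clone or whether the samples of a group were grown apart, so the p-values reflect the spread among these samples alone, and that spread may be technical.

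As background, a cell prepares each origin in G1. The origin recognition complex (ORC) binds DNA, and with CDC6 and CDT1 it loads the ring-shaped MCM2-7 helicase, while geminin binds CDT1 and blocks renewed loading later in the cycle. At the start of S phase CDC45 and the GINS complex join MCM2-7 to form the active helicase, primase with DNA polymerase alpha lays down primers, and polymerases epsilon and delta extend them on the leading and the lagging strand. PCNA, a sliding clamp placed by replication factor C (RFC), tethers the polymerases, RPA coats single-stranded DNA, FEN1 and LIG1 finish the lagging strand, and CAF-1 and UHRF1 restore nucleosomes and DNA methylation. Many of these genes are known targets of E2F transcription factors, and their transcripts are widely used as a sign of proliferation.

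Library totals ran from 60198645 to 81830819 counts. The targeted gene itself was not lower: Rhoa (ENSMUSG00000007815.13) had counts of 1655, 1510 and 1440 in the controls against 2805, 2670 and 2395 in the libraries labelled RhoA knockout. Its log2 fold change was 0.41 ± 0.12 (SE; edgeR adjusted p = 0.0136), a call lost without control replicate 1 (0.0645) or knockout replicate 1 (0.0741). The labels do not say which part of the gene was targeted, and a small deletion can leave its RNA in place, so these counts do not check the edit. The groups are therefore named by their labels throughout. Within each group the libraries numbered 3 stood apart, with chi-square values per degree of freedom of 80.8 or more (computed over genes) against the other libraries of their group, compared with 20.7 and 26.3 between the libraries numbered 1 and 2. All 8 macrophage markers were detected, summing to 18167 to 20022 CPM in the controls and 81106 to 113710.0 CPM in the others, most of it from the lysozyme gene Lyz2. Single markers went both ways, with 3 higher (Lyz2, Cd68 and Csf1r), 4 lower (Itgam at -2.01, Cd14 at -0.58, Adgre1 at -0.51 and Ptprc at -0.39 on the log2 scale) and Spi1 not called. Of 8 osteoclast markers, Calcr and Oscar were at 0 in every library, and the sum was 19.7 to 24.0 CPM over all libraries. Of the 5 tested, 3 fell (Mmp9 at -2.06, Acp5 at -1.43 and Dcstamp at -0.77 on the log2 scale), 1 rose (Ctsk at 1.10) and Nfatc1 was not called. Their part in the results on replication genes was not tested. Of 28 markers of 6 other cell types, 21 were at 0 throughout, and their sum was at most 1.69 CPM in a library. CPM is the usual depth-scaled count, here scaled with TMM factors, and all fold changes are those of the libraries labelled RhoA knockout over the control libraries.

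Transcripts of the replication machinery were more abundant in the libraries labelled RhoA knockout. Of the 42 genes, 30 rose with an edgeR adjusted p under 0.05, none fell and 12 were not called. Across all 12930 genes tested 21.0% rose and 22.3% fell by the same rule, 43.2% in either direction, so that 48.5% of all calls were rises. None of the 42 had a negative change at an unadjusted p under 0.05, and DESeq2 also called 30 higher and 0 lower. A rise of at least 2-fold was found for 22 of them, against 11.2% of all genes. Among the 42, 12 genes share exon sequence with a neighbour and are uncertain for that reason, including Mcm7, Rfc2, Rfc4, Rfc5 and Fen1. The median log2 fold change was 1.11 over the 42 genes and -0.03 over all genes.

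Added together, the 42 genes took 551, 560 and 467 CPM in the control libraries and 1291, 1278 and 1311 CPM in those labelled RhoA knockout. The sum was thus more than doubled, with little spread among the 3 libraries of the second group and the lowest value in control replicate 3. For 31 genes the lowest value of the second group exceeded the highest control value, a pattern shown by 27.5% of all genes, and in no gene did all lie below (28.3% of all genes). Control replicate 3 was the lowest control for 29 of the 42 genes. With both libraries numbered 3 left out, 29 genes rose and none fell, with a median of 0.98; Cdc45, Gins3 and Pola1 were then not called, and Mcm4 and Chaf1a were. These are bulk samples, so a larger share of cells in S phase and more RNA per cell cannot be told apart. Scaling by library totals alone moved the median of all genes to 0.15 and the share of rises among all calls to 59.8%, and left 30 of the 42 called.

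**Figure D1:**
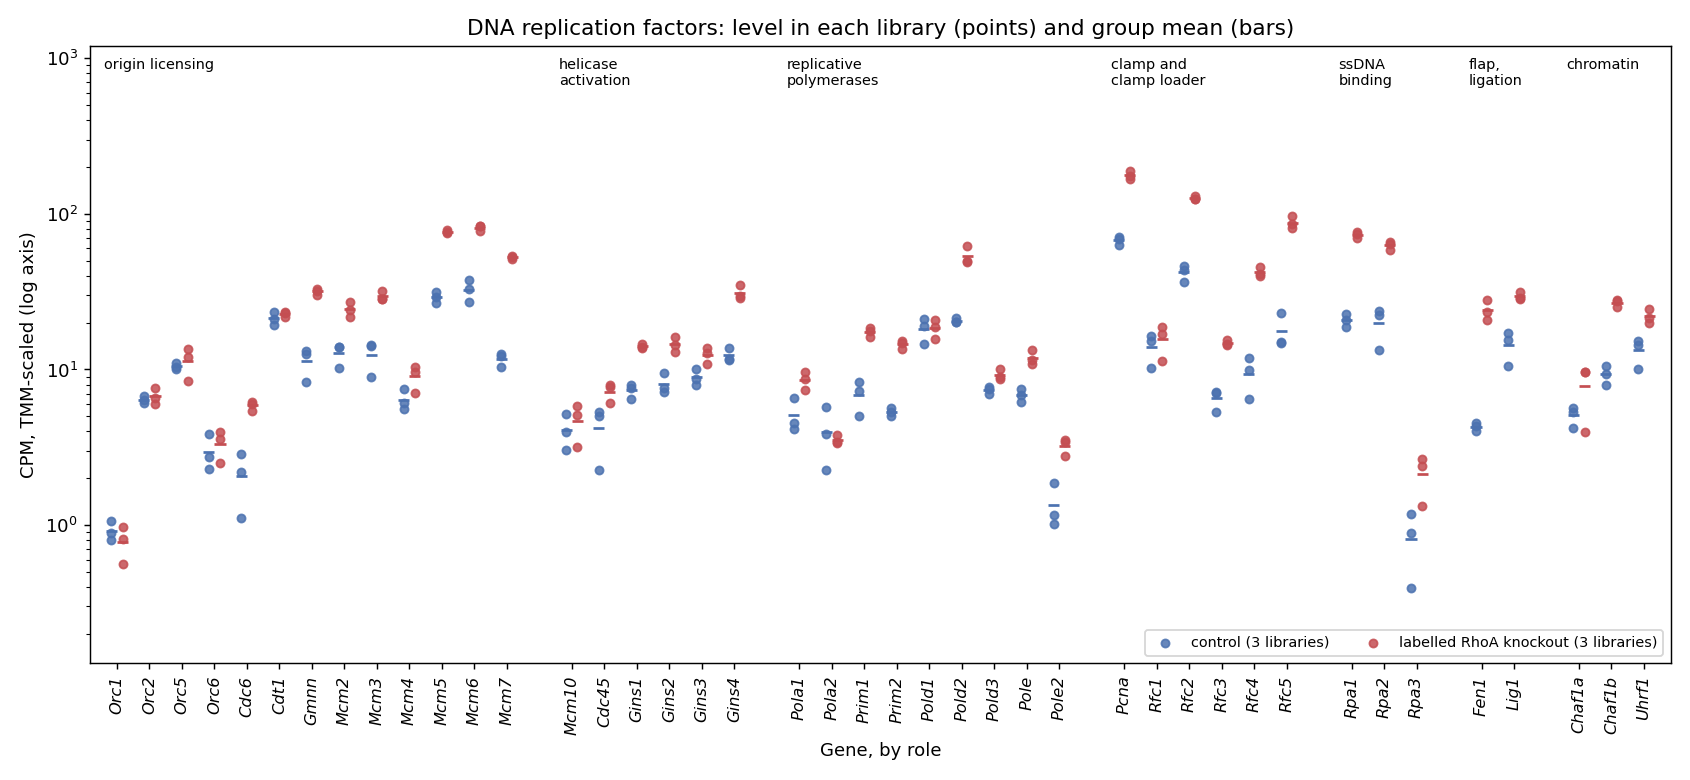
Level of each replication factor in TMM-scaled CPM (log axis) in the 3 control libraries (blue) and the 3 libraries labelled RhoA knockout (red), by role, with bars at the group means. The 2 groups do not overlap for 31 of the 42 genes, and the 4 ORC subunits shown, Cdt1, Pola2, Pold1 and Rfc1 are among those that overlap.

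Within the licensing machinery the rise was uneven. Of 13 licensing genes 7 rose and 6 were not called, and the 6 include the 4 ORC subunits among the 42 genes (Orc3 and Orc4 are in another list, where Orc3 rose by 0.51 ± 0.14 on the log2 scale and Orc4, at -0.00 ± 0.14, was not called). Orc1, the ATPase subunit that is itself cell-cycle controlled in many cells, had 0.894, 1.06 and 0.798 CPM in the control libraries and 0.561, 0.973 and 0.815 CPM in the others, a log2 fold change of -0.23 ± 0.45 (SE, adjusted p = 0.72). Orc2 stood at 6.71, 6.12 and 6.35 against 6.57, 7.61 and 5.97 CPM (0.07 ± 0.17, adjusted p = 0.775). For these core subunits the values of both groups were interleaved.

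Orc5 had 10.4, 11.1 and 10.1 CPM in the controls and 12.0, 13.5 and 8.43 CPM in the libraries labelled RhoA knockout, where replicate 3 lay below all controls (0.11 ± 0.18, adjusted p = 0.672). Orc6, the smallest and most loosely bound subunit, had 2.73, 3.83 and 2.31 against 3.94, 3.56 and 2.50 CPM (0.17 ± 0.29, adjusted p = 0.663). The median log2 fold change of these 4 subunits was 0.09, and their range, from -0.23 to 0.17, took in the median of all genes. Their direction was not settled: that of Orc2 and Orc5 turned without knockout replicate 2, and that of Orc6 with a correction for exon length.

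The loading factors that act with ORC parted from one another. Cdc6, the ATPase that completes the loading complex, rose 2.85-fold, from 2.19, 2.87 and 1.10 to 5.43, 6.22 and 5.96 CPM (log2 fold change 1.51 ± 0.31, SE; adjusted p = 0.00191). Cdt1, its partner in MCM loading, had 19.4, 21.1 and 23.3 CPM in the controls and 23.5, 21.8 and 22.9 CPM in the others, a log2 fold change of 0.10 ± 0.12 (adjusted p = 0.557). Gmnn, which encodes the CDT1 inhibitor geminin, rose 2.80-fold, from 12.6, 13.2 and 8.26 to 30.3, 32.9 and 32.0 CPM (1.49 ± 0.17, adjusted p = 2e-05).

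The transcripts of the inhibitor and of its target were therefore counted in a different proportion in the 2 groups. The proteins were not measured. Per kilobase of exon, the Gmnn to Cdt1 ratio was 1.39, 1.33 and 0.76 in the control libraries and 2.77, 3.24 and 2.998 in the libraries labelled RhoA knockout, with no overlap. This ratio is formed within a library, so it does not depend on the scaling between libraries. It and the other ratios below are not corrected for the trend of change with exon length seen across all genes. With that correction the log2 fold change was 1.12 for Gmnn and -0.03 for Cdt1. All these ratios were chosen after the values were seen and have no test.

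Of the 6 subunits of the MCM2-7 helicase, 5 rose, from 1.91-fold for Mcm2 to 4.48-fold for Mcm7. Mcm7 (chromosome 5, 138164583 to 138172422, minus strand), which sits next to MCM4 in the ring, rose from 12.3, 12.6 and 10.4 to 53.0, 53.9 and 51.3 CPM, and had the smallest adjusted p of the 42 genes (2.16 ± 0.12, SE; 7.36e-08). Mcm5 and Mcm6, the subunits with the highest CPM, averaged 29.1 ± 2.49 and 32.6 ± 5.29 CPM in the controls against 76.8 ± 1.44 and 81.5 ± 2.94 CPM (SD, n = 3 each). Mcm2 and Mcm3 had log2 fold changes of 0.93 ± 0.15 and 1.24 ± 0.17. The 3 libraries labelled RhoA knockout lay above all controls for each of these 5 genes.

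Mcm4 was the exception in the ring. It had 6.05, 7.52 and 5.60 CPM in the controls and 10.4, 9.63 and 7.06 CPM in the libraries labelled RhoA knockout, where replicate 3 lay below control replicate 2 (0.50 ± 0.20, adjusted p = 0.0596). It was called under 6 of 16 alternatives. Among these were the fits without knockout replicate 3 (0.66, adjusted p = 0.0211) or control replicate 2 (0.61, 0.0479) and with counts divided by 4 (0.50, 0.0396). Its adjusted p over all alternatives ran from 0.0211 to 0.234. The Mcm7 to Mcm4 ratio per kilobase was 1.65, 1.36 and 1.51 in the controls and 4.14, 4.54 and 5.89 in the others. That of Mcm5 to Mcm6 was 0.976, 1.05 and 1.14 and 1.06, 1.10 and 1.15, with overlapping groups.

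**Figure D2:**
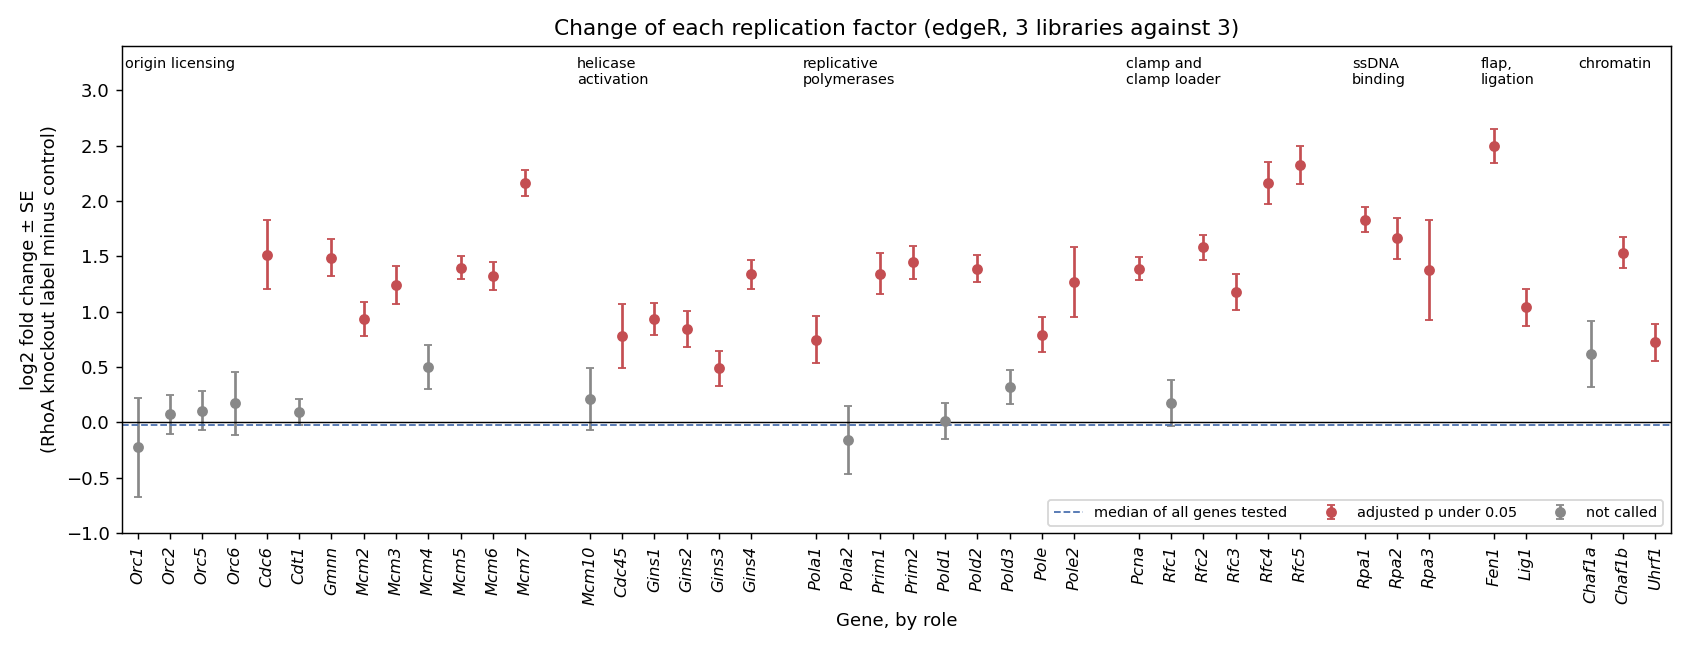
Log2 fold change (libraries labelled RhoA knockout minus control) with its standard error for each of the 42 genes, by role, from edgeR with 3 libraries a group. Red points have an adjusted p under 0.05, grey points do not, and the dashed line marks the median of all 12930 genes tested at -0.03; no red point lies below 0.

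Most factors that switch the loaded helicase on also rose. Of 6 genes 5 were called higher, with a median log2 fold change of 0.81 for the group. With the exon length correction 3 of the 6 were called higher, with a median of 0.64. Gins4, which encodes the SLD5 subunit of GINS, rose 2.53-fold from 11.6, 11.7 and 13.7 to 28.7, 29.8 and 34.7 CPM (1.34 ± 0.13, SE; adjusted p = 6.58e-06). Gins1 and Gins2, which encode PSF1 and PSF2, rose 1.91-fold and 1.79-fold, reaching 14.1 ± 0.388 and 14.5 ± 1.65 CPM from control means of 7.37 ± 0.792 and 8.09 ± 1.23 (SD, n = 3 each). With the exon length correction the log2 fold change of Gins1 was 0.57.

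Gins3, which encodes the fourth GINS subunit PSF3, had the smallest change of that complex. Its values were 8.64, 10.1 and 7.98 CPM against 10.8, 12.9 and 13.8 CPM (0.49 ± 0.16, adjusted p = 0.0269). The call was lost without control replicate 1 or 3 or knockout replicate 2 or 3 (adjusted p from 0.0732 to 0.0909), and with the length correction, which gave 0.28 (adjusted p = 0.179).

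Cdc45, the third part of the active helicase, had 5.33, 5.01 and 2.26 CPM in the controls and 6.09, 7.90 and 7.67 CPM in the libraries labelled RhoA knockout (0.78 ± 0.29, adjusted p = 0.0447). Its lowest value was that of control replicate 3, without which the log2 fold change was 0.48 (adjusted p = 0.0834). Leaving out control replicate 2 or any single knockout-labelled library also ended the call (0.0564 to 0.143). So did the exon length correction, which gave 0.72 (adjusted p = 0.065). Mcm10, a scaffold needed for origin firing, had 5.17, 3.96 and 3.05 and 5.80, 5.13 and 3.16 CPM, and its groups overlapped (0.21 ± 0.28, adjusted p = 0.588).

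Among the 9 genes of the replicative polymerases, 6 rose, and the called and uncalled genes were subunits of the same enzymes. Both primase subunits rose: Prim1, the catalytic one, from 7.30, 8.32 and 5.01 to 18.5, 16.1 and 17.8 CPM (1.34 ± 0.19, SE; adjusted p = 0.000104), and Prim2, the iron-sulfur subunit, from 5.34, 5.69 and 5.01 to 14.8, 13.6 and 15.3 CPM (1.45 ± 0.15, adjusted p = 9.53e-06). The polymerase alpha subunits that work with them showed smaller or no called changes. Pola1, the catalytic chain, went from 4.52, 6.59 and 4.16 to 7.40, 8.62 and 9.60 CPM (0.75 ± 0.21, adjusted p = 0.0131), a call lost without control replicate 1 (0.0562) or knockout replicate 3 (0.0526), while the length correction gave 1.17. Pola2, the accessory B subunit, had 5.70, 2.27 and 3.83 against 3.44, 3.78 and 3.35 CPM (-0.16 ± 0.31, adjusted p = 0.705), and its sign turned without control replicate 1, with library totals alone and with the length correction.

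Within polymerase delta a subunit that rose stood beside others that were not called. Pold2, its second subunit, rose 2.62-fold, from 20.1, 20.1 and 21.4 to 48.8, 49.8 and 62.6 CPM (1.39 ± 0.12, adjusted p = 3.29e-06). The catalytic subunit Pold1 had 19.1, 21.3 and 14.5 CPM in the controls and 20.9, 15.6 and 18.9 CPM in the others, a log2 fold change of 0.01 ± 0.16 (adjusted p = 0.959) whose sign turned without control replicate 3 or knockout replicate 1. Per kilobase, the Pold2 to Pold1 ratio was 2.70, 2.42 and 3.78 in the controls and 5.98, 8.18 and 8.50 in the libraries labelled RhoA knockout.

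Pold3, the subunit that binds PCNA, had 6.998, 7.52 and 7.67 and 10.1, 8.88 and 8.69 CPM, so that the groups did not overlap although the change was not called (0.32 ± 0.16, adjusted p = 0.124). Of polymerase epsilon, the catalytic Pole went from 7.53, 6.20 and 6.86 to 11.5, 13.4 and 10.9 CPM (0.79 ± 0.16, adjusted p = 0.00163; 1.30 with the length correction). Its partner Pole2 rose from 1.15, 1.86 and 1.02 to 3.50, 3.42 and 2.76 CPM (1.26 ± 0.32, adjusted p = 0.00659). The ratio of Pole2 to Pole overlapped between the groups.

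The clamp and 4 of the 5 clamp loader genes rose, with a median log2 fold change of 1.48 for the 6 genes. Pcna, the most abundant of the 42 transcripts, stood at 70.7, 63.0 and 69.0 CPM in the controls and 174, 167 and 190.0 CPM in the libraries labelled RhoA knockout (1.39 ± 0.10, adjusted p = 8.84e-07). Rfc5 (chromosome 5, 117378103 to 117389047, minus strand), a small loader subunit, rose 5.01-fold, from 14.9, 22.9 and 14.9 to 85.9, 80.7 and 97.4 CPM (2.32 ± 0.17, adjusted p = 7.04e-07). Rfc4 rose 4.48-fold, from 9.88, 11.9 and 6.45 to 41.1, 39.6 and 45.8 CPM (2.16 ± 0.19, adjusted p = 2.99e-06).

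The remaining small subunits moved the same way. Rfc2 went from 43.6, 46.3 and 36.6 to 124, 124 and 129.7 CPM (1.58 ± 0.11, adjusted p = 6.16e-07), and Rfc3 rose 2.26-fold from 6.52 ± 1.06 to 14.8 ± 0.521 CPM (SD, n = 3 each). Rfc1, the large subunit that makes the complex specific for PCNA, was not called. It had 15.1, 16.3 and 10.2 CPM against 18.8, 16.9 and 11.4 CPM (0.17 ± 0.21, adjusted p = 0.541), with the library numbered 3 lowest in both groups, and its log2 fold change was at 0.00 without control replicate 3. Per kilobase, the Rfc4 to Rfc1 ratio was 2.56, 2.86 and 2.48 in the controls and 8.61, 9.18 and 15.8 in the others.

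All 3 RPA genes rose. Rpa1, the large DNA-binding subunit, went from 18.7, 22.6 and 20.8 to 74.0, 69.9 and 76.8 CPM (1.83 ± 0.11, SE; adjusted p = 2.02e-07), and Rpa2, the subunit phosphorylated under replication stress, from 22.3, 23.8 and 13.4 to 58.8, 65.5 and 64.1 CPM (1.66 ± 0.18, adjusted p = 1.67e-05). The Rpa1 to Rpa2 ratio per kilobase was 0.451, 0.508 and 0.831 in the controls and 0.676, 0.572 and 0.643 in the others, so that the groups overlapped. Rpa3, the small subunit, was counted far less: 69, 23 and 69 counts in the controls and 219, 214 and 101 in the others, or 0.894, 0.393 and 1.17 and 2.67, 2.39 and 1.33 CPM. Its rise (1.38 ± 0.45, adjusted p = 0.0267) was no longer called without control replicate 1 or 2 or knockout replicate 1 or 2 (0.062 to 0.115), nor with the length correction (0.0818).

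Fen1, the flap endonuclease that trims Okazaki fragments, had the largest fold change of the 42 genes in the fit reported here, although Rfc5 was ahead without control replicate 2 and with the length correction (2.41 against 2.25). Fen1 rose 5.64-fold, from 4.55, 3.998 and 4.31 to 28.2, 23.4 and 20.9 CPM (2.49 ± 0.16, adjusted p = 2.19e-07). Lig1, the ligase that seals the fragments, rose 2.06-fold, from 17.1, 15.5 and 10.6 to 31.7, 28.2 and 28.9 CPM (1.04 ± 0.17, adjusted p = 0.000319). Per kilobase, Fen1 was 0.469, 0.454 and 0.72 times Lig1 in the controls and 1.57, 1.46 and 1.28 times in the libraries labelled RhoA knockout. As counted, the transcript of the nuclease was below that of the ligase in each control library and above it in each of the others. Fen1 shares 78.8% of its exon length with Gm10143 and 5.37% with Tmem258, and the strand setting is not known. Which of the 2 transcripts was the more abundant is therefore uncertain.

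Of the genes that act on chromatin behind the fork, Chaf1b, the middle subunit of the histone chaperone CAF-1, rose 2.89-fold from 9.41, 10.6 and 7.94 to 27.9, 25.3 and 27.7 CPM (1.53 ± 0.14, adjusted p = 3.63e-06). Uhrf1, which brings the maintenance methyltransferase to newly copied DNA, rose 1.65-fold from 14.4, 15.3 and 10.1 to 21.3, 24.5 and 19.9 CPM (0.72 ± 0.16, adjusted p = 0.00371). Chaf1a, the large CAF-1 subunit, had 5.69, 5.33 and 4.21 CPM in the controls and 9.69, 9.68 and 3.98 CPM in the others, with knockout replicate 3 below every control (0.62 ± 0.30, adjusted p = 0.117). Without that library the log2 fold change was 0.94 (adjusted p = 0.00418), and with the length correction 1.02 (0.0124).

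**Figure D3:**
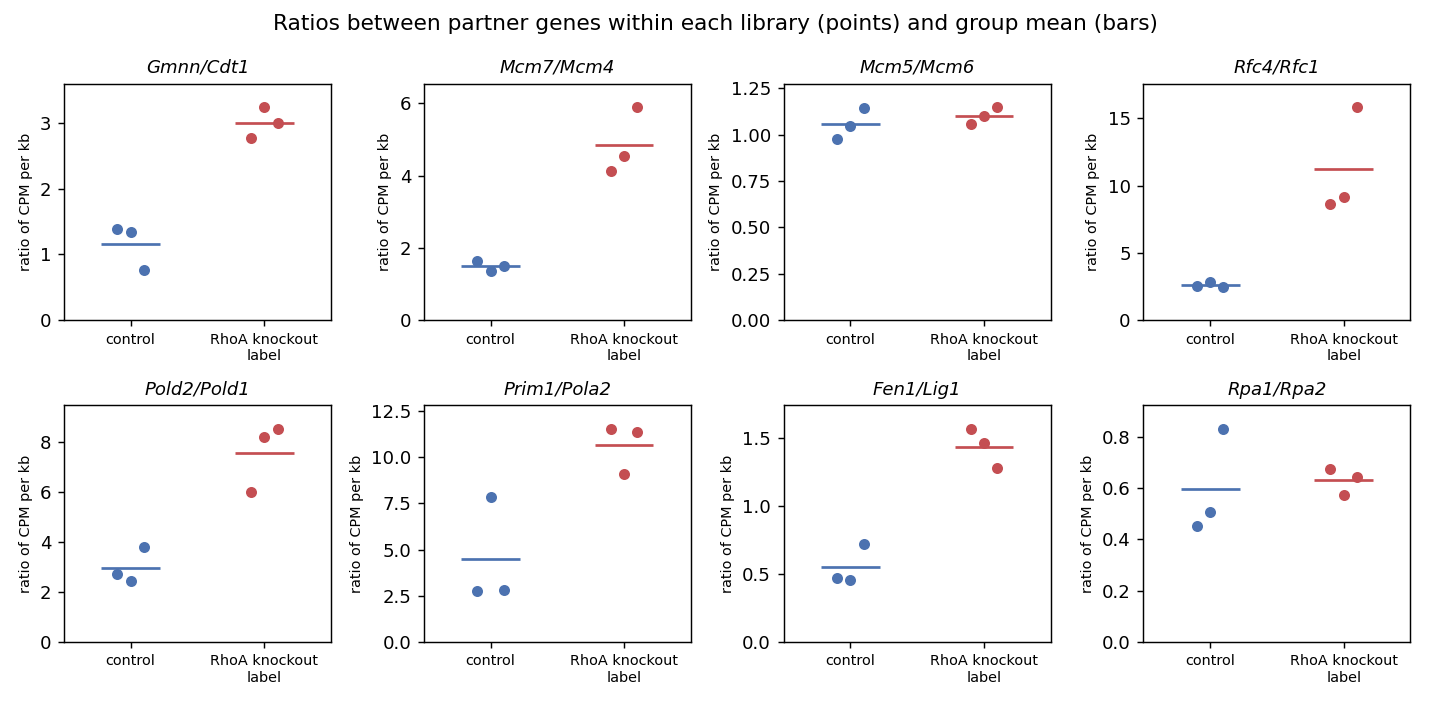
Ratio between pairs of partner genes, as CPM per kilobase of exon, in each of the 3 control libraries (blue) and the 3 libraries labelled RhoA knockout (red), with bars at the group means; each axis starts at 0. The groups do not overlap for Gmnn/Cdt1, Mcm7/Mcm4, Rfc4/Rfc1, Pold2/Pold1, Prim1/Pola2 and Fen1/Lig1, and overlap for Mcm5/Mcm6 and Rpa1/Rpa2.

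Levels were compared between genes per kilobase of exon, using the union of all annotated exons, which lowers the value of genes with long rare exons. On this scale Pcna led in both groups, with 28.2 ± 1.68 CPM per kilobase in the controls and 73.7 ± 4.96 in the others (SD, n = 3 each). In the controls it was followed by Pold2 at 10.8 ± 0.388, Gins4 at 9.12 ± 0.881, Gmnn at 7.74 ± 1.83 and Mcm5 at 7.30 ± 0.624, and in this order Pold2 differed from Gins4 by more than either SD, Gmnn did not differ from Gins4 or from Mcm5 beyond its spread, and Mcm5 lay below Gins4 in every library. In the libraries labelled RhoA knockout the order below Pcna was Pold2 at 28.3 ± 4.07, Rfc4 at 27.5 ± 2.12, Gins4 at 23.0 ± 2.36 and Gmnn at 21.7 ± 0.915, and the first 2 of these did not differ beyond their spread. Orc1 was lowest in both, with 0.264 ± 0.038 and 0.225 ± 0.0598. Within the MCM ring, the level in the controls ran from 1.78 ± 0.279 for Mcm4 and 1.83 ± 0.306 for Mcm2 to 7.30 ± 0.624 for Mcm5, and in the others from 2.52 ± 0.487 to 19.2 ± 0.361 for the same lowest and highest genes.

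For 12 of the 42 genes part of the exon sequence is shared with a neighbouring gene that held at least 10% of their count, and without a known strand setting such reads cannot be assigned. The neighbours are Gm12743 for Orc1, Nif3l1 for Orc2, Vps35 for Orc6, Ap4m1 for Mcm7, Ufd1 for Cdc45, Gse1 for Gins2, Gm49384 for Pole2, Lat2 for Rfc2, Eif4a2 for Rfc4, Wsb2 for Rfc5, Tmem258 for Fen1 and Ubxn6 for Chaf1a. The values of these 12 are uncertain to that extent. Among these 12 pairs the widest sharing was 67.3% of the exon length for Gins2, 52.5% for Chaf1a and 29.8% for Orc2. It was 5.37% for Fen1 with Tmem258 and 7.25% for Mcm7 with Ap4m1. Eif4a2 and Wsb2 were lower in the libraries labelled RhoA knockout, with log2 fold changes of -1.47 and -1.23, while Rfc4 and Rfc5 rose. Lat2, Tmem258 and Vps35 were higher, by 0.69, 0.72 and 0.60. Mean levels went from 92.4 to 149 CPM for Lat2, from 36.8 to 60.7 for Tmem258 and from 43.7 to 66.3 for Vps35. In both groups these lay above the means of Rfc2, Fen1 and Orc6. The remaining neighbours were not called or not tested. How far reads of a neighbour enter the count of its partner was not tested. Of the 30 genes with no such neighbour, 22 rose and none fell, with the same median of 1.11. Outside these 12 pairs, Gm10143 on the opposite strand overlaps Fen1 over 78.8% of the Fen1 exon length. It held at most 2.36% of the Fen1 count, below the 10% cutoff. Reads there cannot be assigned either, so that share does not settle how far the Fen1 count is affected. Zswim9, which shares exon sequence with Lig1, held at most 6.43% of the Lig1 count. Other near-identical copies held at most 1.84% of a gene's count (Pcna-ps2 for Pcna).

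Across all genes, the change depended on transcript length. In 10 bins of equal size by exon length, the median log2 fold change was 0.25 in the shortest (median 558.5 bp), highest in the next at 0.40 (1359 bp) and lowest in the longest at -0.59 (11714.5 bp). The replication factors had a median exon length of 4045 bp, close to the 3856 bp of all genes tested. With each library's trend on length taken out, 28 of the 42 rose, none fell and the median was 1.08. Whether the trend has a part in single values was not tested beyond that correction.

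**Figure D4:**
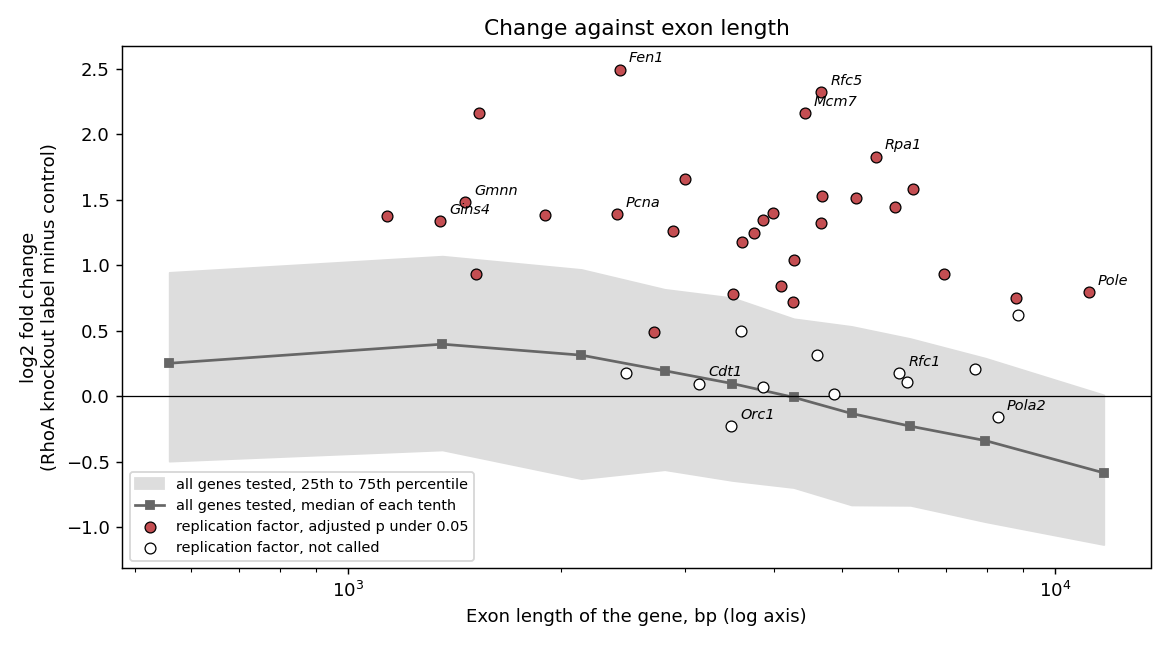
Log2 fold change against exon length (log axis) for the 42 replication factors (red if called, white if not) and for all genes tested (grey line, median of each of 10 bins by length; band, 25th to 75th percentile). The called genes lie above the grey median at every length, and Pola1, Pole and Chaf1a are long genes whose log2 fold change was larger with the length correction.

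Because E2F factors are known to act on many of these genes, promoters from RefSeq (GRCm38.p6; 250 bases before to 50 after a start) were searched on both strands for the string TTTCGCG, for its close variant TTTGGCG and for the GC-rich string TTCCCGC, all of which resemble E2F sites and can overlap one another. A promoter was listed for 34 of the 42 genes. At least 1 of the strings was present in 23 of these 34 (67.6%), against 14.4% of 8812 tested genes with a listed promoter and 6.72% of all 32851 promoters. Of the 23 called genes with a promoter 16 held one, and of the 11 not called 7 did, among them Orc1, Cdt1 and Pola2. The string CCAAT, which can share end letters with these, was found in 22 of the 34 (64.7%) against 43.5% of those tested genes, and TTTGAA in 5 of 34 (14.7%) against 15.0%. These are matches of letters and not measured binding sites. Stretches of up to 120 bases were cut from these promoters, upstream of the annotated gene. Only those of 4 genes hold such strings, and these are shown with the strings in capitals. Matches of the other genes lie elsewhere in the searched promoters, so the 4 are not typical. Of the 4 genes, 3 rose (Mcm6, Rpa2 and Uhrf1) and 1 was not called (Chaf1a). The stretches lie at chr1:128359706-128359825 on the minus strand and at chr4:132768212-132768331, chr17:56303201-56303320 and chr17:56040296-56040415 on the plus strand, and each is written 5′ to 3′ along its gene.
Mcm6: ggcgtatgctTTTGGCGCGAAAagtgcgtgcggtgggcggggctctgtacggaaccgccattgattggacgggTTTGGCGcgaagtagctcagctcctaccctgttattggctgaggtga
Rpa2: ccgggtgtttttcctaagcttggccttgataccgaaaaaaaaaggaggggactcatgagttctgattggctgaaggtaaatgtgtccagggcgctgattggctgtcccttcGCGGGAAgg
Uhrf1: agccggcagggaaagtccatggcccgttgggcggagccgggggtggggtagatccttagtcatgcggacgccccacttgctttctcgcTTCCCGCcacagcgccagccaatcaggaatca
Chaf1a: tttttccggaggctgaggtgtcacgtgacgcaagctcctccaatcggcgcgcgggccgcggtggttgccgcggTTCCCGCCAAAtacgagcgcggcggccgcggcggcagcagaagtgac
Distances are counted from the RefSeq start, which for Rpa2 and Uhrf1 lies inside the GENCODE gene, past the end of the stretch shown. Mcm6 holds TTTGGCG starting 110 and 47 bases before its start, the first overlapping TTTCGCG on the other strand. Within the stretches shown, Rpa2 and Uhrf1 each hold TTCCCGC, starting 37 bases before the start on the opposite strand and 48 bases before it on the gene's own strand. Chaf1a holds TTCCCGC overlapping TTTGGCG on the other strand, from 47 bases before its start.

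Other genes of DNA replication were less uniform. Of 89 such genes in 6 lists, 29 rose, 10 fell and 50 were not called, with a median log2 fold change of 0.31. Across all genes tested 21.0% rose and 22.3% fell. Of 15 further origin and firing factors 3 rose, a share near the 21.0% of all genes, and 0 fell. The 3 were Fbxo5, an inhibitor of the anaphase-promoting complex, at 2.33 ± 0.22 (adjusted p = 5.05e-06), Mcmbp, a chaperone of MCM proteins, at 1.12 ± 0.14 (3.93e-05), and Orc3 at 0.51 ± 0.14 (0.0119), a call lost without both libraries numbered 3 (0.0602). The kinase genes Cdc7 and Dbf4, which fire origins, had 2.79 ± 0.145 against 2.14 ± 0.277 CPM and 1.69 ± 0.739 against 1.75 ± 0.307 CPM, and were not called.

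Of 27 other fork factors 14 rose and 3 fell, beside 21.0% and 22.3% of all genes. Asf1b, a histone chaperone of dividing cells, had the largest change of that list, from 29.5, 28.4 and 15.4 to 211, 225 and 242 CPM (3.21 ± 0.22, adjusted p = 2.03e-06). Tipin, of the fork protection complex, rose from 34.4 ± 4.42 to 127 ± 9.06 CPM (SD, n = 3 each), and Rnaseh2a, which removes RNA from DNA, had a log2 fold change of 0.92 ± 0.11 and is uncertain because of its neighbour Prdx2. The 3 that fell were Asf1a, the counterpart of Asf1b (-1.52 ± 0.43, adjusted p = 0.0123; uncertain because it shares exon sequence with Mcm9, and not called without both libraries numbered 3, 0.0642), and the small accessory subunits Pold4 (-1.04 ± 0.26, 0.00632) and Pole4 (-1.20 ± 0.31, 0.00844). Pole3, a further small subunit of polymerase epsilon, rose (0.92 ± 0.17, 0.000766).

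Of 10 genes of nucleotide supply, which make the building blocks of DNA, 7 rose and 1 fell, against 21.0% and 22.3% of all genes. Rrm2, the regulated subunit of ribonucleotide reductase, rose from 36.1 ± 7.40 to 116 ± 4.45 CPM, Tk1, thymidine kinase, from 23.4 ± 6.89 to 100.2 ± 0.88 CPM, and Dtymk, thymidylate kinase, from 6.32 ± 1.77 to 26.6 ± 1.66 CPM (SD, n = 3 each). Samhd1, which degrades deoxynucleotides and is also interferon-induced, fell from 50.4, 54.3 and 42.2 to 15.0, 17.9 and 14.6 CPM (-1.63 ± 0.13, adjusted p = 1.82e-06).

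Of 17 regulators of S phase entry 3 rose and 2 fell, where 21.0% and 22.3% of all genes did. Ccne2, a cyclin E, rose from 5, 15 and 24 counts to 267, 199 and 246 counts (3.60 ± 0.54, adjusted p = 0.000196) and Ccna2, cyclin A2, from 10.1, 7.12 and 5.89 to 20.05, 29.2 and 35.4 CPM (1.87 ± 0.23, 6.6e-05), both uncertain through the neighbours Ints8 and Exosc9. Cdk2, their kinase, had a log2 fold change of 0.69 ± 0.20 (0.0159), not called without knockout replicate 1 (0.0876) or without both libraries numbered 3 (0.0571). Cdkn1a, the CDK inhibitor p21 that also binds PCNA, fell from 340.4, 264 and 380.2 to 100.3, 110.4 and 139 CPM (-1.49 ± 0.16, 1.23e-05). E2f4 had a log2 fold change of -0.46 ± 0.16 (0.0384), no longer called under 7 alternatives, and E2f1 stood at 7.20 ± 0.235 and 7.38 ± 0.985 CPM.

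Of 8 genes of the replication checkpoint 1 rose and 2 fell, where 21.0% and 22.3% of all genes did. Wee1, which holds CDKs inactive, rose from 0.207, 0.427 and 0.899 to 2.34, 1.95 and 2.34 CPM (2.12 ± 0.49, adjusted p = 0.00419). Atr, the kinase that senses stalled forks, had a log2 fold change of -1.35 ± 0.27 (0.00161), but -0.56 (0.101) with the length correction, and is uncertain because of Gm16794. Hus1, of the checkpoint clamp, had -1.29 ± 0.37 (0.0133), not called without control replicate 3 (0.0543).

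The machinery that copies mitochondrial DNA, with its own polymerase, gave 1 rise and 2 falls among 12 genes and a median log2 fold change of -0.00. Across all genes 21.0% rose and 22.3% fell. The 3 calls were Mgme1, an exonuclease (0.98 ± 0.33, adjusted p = 0.0297), Lig3, a ligase (-0.99 ± 0.27, 0.0099; 0.0619 with the length correction and 0.0564 without both libraries numbered 3), and Polg2, the accessory polymerase subunit (-1.20 ± 0.41, 0.0326). All 3 share exon sequence with a neighbour (Snx5, Rffl and Milr1). Mgme1 was not called without control replicate 1 or 2 or knockout replicate 1 or 2 (0.0547 to 0.156), nor was Polg2 (0.0693 to 0.0948), which was also not called with library totals alone (0.0597).

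**Figure D5:**
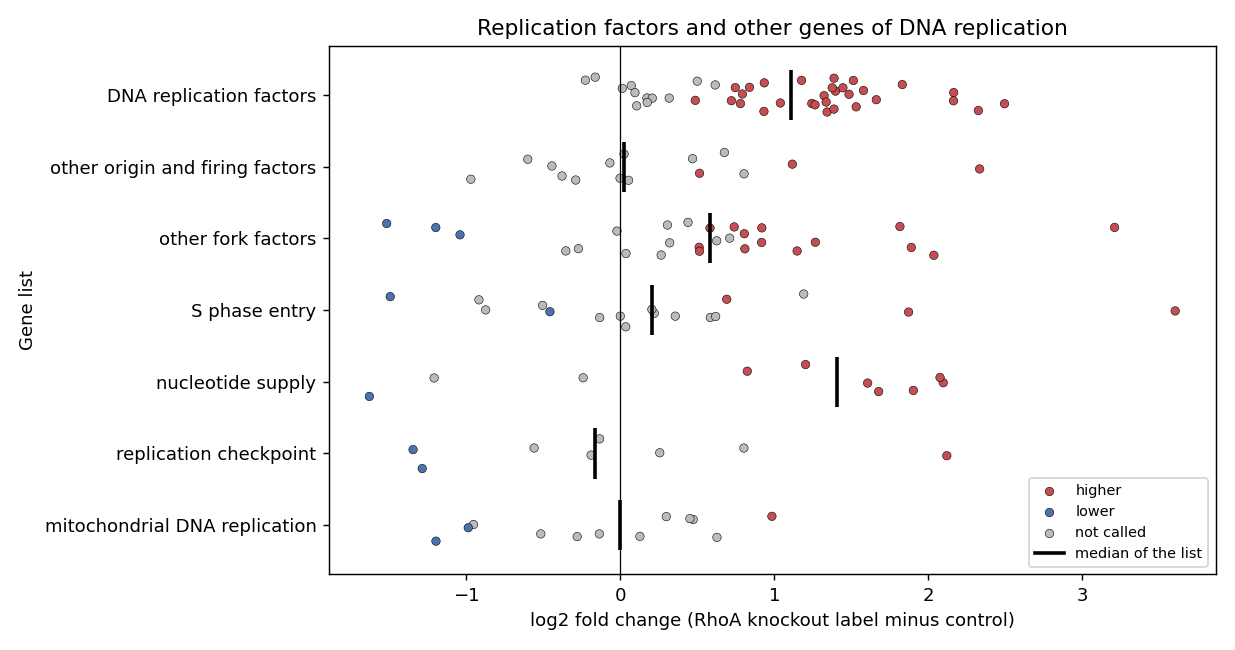
Log2 fold change of each of the 42 replication factors and of the genes of 6 other lists of DNA replication (1 point a gene; red higher, blue lower, grey not called; vertical spread within a row has no meaning), with bars at the medians. The median is 1.11 for the replication factors, 1.40 for nucleotide supply and 0.58 or less for the other 5 lists.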

How the data were processed

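RNA of 6 samples (Trizol extraction and Illumina library preparation, per the labels' protocols) was counted per gene by the authors, who deposited whole-number counts in 1 table without normalization. Per the submitters' processing notes the build was GRCm38. Which aligner, counting tool and strand setting were used is not given in the sources used here. Of 55487 Ensembl identifiers, 55227 matched a GENCODE M21 symbol, and 0 value columns were left out.

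The comparison used edgeR 4.0.16 in R 4.3.3: TMM factors, filterByExpr defaults, a robust quasi-likelihood fit and Benjamini-Hochberg adjustment over 12930 genes, with calls at 0.05. Each standard error was computed as the absolute log2 fold change over √F. The fit was tested on simulated counts. Shared sequence was sought with blastn 2.17.0 (95% identity over 200 bp) and by exon overlap of at least 100 bp. Neighbours or copies count from 10% of a gene's count. Alternatives used DESeq2 1.42.0, other scalings and filters, left-out libraries, a replicate block, an exon length offset (lowess, span 0.3) and counts divided by 4. Members and lists were chosen with earlier results of these data known. Named by rule, with per-library values, were in each role the genes with the smallest adjusted p and the largest and smallest absolute change, all genes of roles with 3 or fewer and all uncalled genes; from each other list the up to 3 calls with the smallest p in each direction; and Rhoa. Per-library values were also given, outside this rule, for Cdc6, Gmnn, Cdc45, Gins3, Prim1, Pola1, Pole, Pole2, Pcna and Rfc4. Other values outside it (Orc4, Pole3, Cdc7, Dbf4, E2f1 and the neighbours Eif4a2, Wsb2, Lat2, Tmem258 and Vps35) were chosen after they were seen. Depth gives each of the 42 genes at least 23 counts in a library.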

Additional observations from a re-analysis of the deposited data

How the results depend on the processing

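Over 16 alternatives the number of the 42 genes called higher stayed between 27 and 31 and none was called lower. Leaving out 1 library gave 27 to 29. The 30 genes with no neighbour or copy at 10% of their count or more, set apart after the data were seen, gave 22. Of the 30 called genes, 26 were called under every alternative, the exceptions being Cdc45, Gins3, Pola1 and Rpa3, and of the 12 uncalled genes 10 were called under none, the exceptions being Mcm4 and Chaf1a. Reversals of sign were limited to uncalled genes near 0. Without knockout replicate 2, Orc2 was at -0.046 and Orc5 at -0.061. With the length offset Orc6 was at -0.069, Cdt1 at -0.030 and Pola2 at 0.22. Pola2 was at 0.017 with library totals alone and at 0.21 without control replicate 1. Pold1 was at -0.13 without control replicate 3, -0.103 without knockout replicate 1 and -0.14 without both libraries numbered 3, and Rfc1 at -0.000192 without control replicate 3. Leaving out each library in turn, the range was -0.046 to 0.157 for Orc2, -0.061 to 0.287 for Orc5, -0.46 to 0.209 for Pola2, -0.126 to 0.112 for Pold1 and -0.000192 to 0.368 for Rfc1. The cause was not tested. With the replicate number as a block 5372 genes were called, against 5592 without it, and 30 of the 42 rose, so it changed no call among them; of the other genes named, E2f4 (adjusted p = 0.0652), Mgme1 (0.0569) and Polg2 (0.0542) were not called with it. Deviations of same-numbered libraries from their group means had correlations of -0.0059, 0.028 and 0.014. These values do not settle whether same-numbered samples shared a day or a culture, and the labels do not say. The 23 counts of Rpa3 in control replicate 2 mark where depth limits a value most.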
